A study of Mus musculus with 192 samples.

Results

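The G1 and S phase genes described here are 34 genes of the cell division cycle, chosen by name from the 24264 genes of a table of molecule counts, and all 34 were in the table. The table held 96 wells of 1 microfluidic chip, each loaded to capture a single R1 mouse embryonic stem (ES) cell. R1 is an established mouse ES cell line. The labels give no treatment and no second genotype, so all wells are 1 culture and 1 sample. The cells were grown on irradiated mouse embryonic fibroblast feeders, separated from them by letting the feeders settle, depleted of dead and early apoptotic cells, frozen in DMSO and thawed before capture. Each of the 96 cell barcodes stands in the titles of 2 deposited libraries, one as made and one amplified further, and the table combines both forms.

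Wells fell into 2 ranges that are described apart. The 45 low-RNA wells held 8774 to 35543 gene molecules (median 22234), and the 51 RNA-rich wells held 51390 to 573648 (median 98750). No well lay between 40000 and 50000, the limits of the ranges. A level below is the number of molecules of a gene per 10000 gene molecules of the well. Each molecule is counted once by its molecular tag, so levels of different genes are compared without division by length. The median share of gene molecules from mitochondrially encoded genes was 29.1% in low-RNA wells and 10.4% in RNA-rich wells. Whether each chamber held an intact cell was not tested. No p-value was computed, because wells of 1 culture are not replicates of a condition.

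The label of the cells was checked against fixed markers. A marker was counted as detected in a range if at least 1 of its wells held a molecule. All 13 ES cell markers were detected in both ranges, with a summed level of 40.2 to 146 (median 55.6) in low-RNA wells and 18.9 to 227 (median 94.7) in RNA-rich wells. Esrrb was found in the fewest wells of these, 18 of 45 low-RNA wells and 33 of 51 RNA-rich wells. Feeder fibroblast markers summed to 7.41 to 22.8 (median 12.96) in low-RNA wells and 4.72 to 191 (median 9.15) in RNA-rich wells, with 11 of 14 markers detected in low-RNA wells and 13 in RNA-rich wells. Postn was at 0 in both ranges, and Col3a1 and Thy1 were also at 0 in low-RNA wells. Trophectoderm markers summed to 0.612 to 16.2 (median 6.21) in low-RNA wells and 1.95 to 74.8 (median 3.66) in RNA-rich wells, with all 8 detected. Krt8 was found in every well, but Cdx2 in 1 low-RNA well and 5 RNA-rich wells, and Gata3 in 4 and 6. Marker-high wells are those with Krt8 and Krt18 together at 10 or more, or feeder markers at 40 or more. There were 2 among low-RNA wells and 13 among RNA-rich wells, and results are also given for the other 38 RNA-rich wells. Wells C03 and H03, described next, are among the 13, so leaving out marker-high wells also leaves out these wells.

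Wells C03 and H03 stood apart from all others. They held 319520 and 573648 gene molecules with 36465 and 55740 spike-in molecules, where the median RNA-rich well had 7992 spike-in molecules. Their counts differed by less than sampling noise, with a chi-square per degree of freedom of 0.783 over 3148 genes. The same measure lay between 3.74 and 11.2 for C03 against each other RNA-rich well. Each also resembled the pooled molecules of the other 94 wells, with a correlation of 0.984 for C03 and 0.988 for H03 across genes of log2(level + 1), where the other RNA-rich wells had at most 0.930. Well H12 of the low-RNA range had 926 spike-in molecules, against a median of 6098. The main results were recomputed with C03 and H03 counted once, by leaving out H03, and again without C03, H03 and H12. With H03 left out, the median sum of members over RNA-rich wells was 46.2, the counts of called members given below were 4, 0 and 3 as with all wells, and the correlation with G2 and M phase genes was -0.27. Without all 3 wells these values were 46.8, 3, 0, 3 and -0.27.

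Cells prepare for DNA replication in G1 by loading the MCM ring helicase onto origins with the help of Cdc6 and Cdt1. In S phase the ring is joined by Cdc45 and GINS, unwinds the DNA, and polymerases held by the Pcna clamp copy it while nucleotides and histones are supplied. Many of these genes are targets of E2F transcription factors, which cyclins D and E release from the retinoblastoma proteins. Mouse ES cells are known for a short G1 phase and for a large share of cells in S phase.

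Promoter sequences are shown for the 4 MCM genes with an E2F-type word, since pairs of MCM genes were all correlated above 0, and for Hells, the member with the highest level. Those pairs include Mcm2, which had no word, and Mcm4, which had no promoter sequence. A link between words and correlation was not tested. The sequences are from RefSeq on GRCm38.p6 and run from 250 bases before to 50 after the annotated start of transcription, 5′ to 3′ on the strand of the gene. Capitals mark any of the words TTTCCCGC, TTTCGCGC, TTTGCCGC and TTTGGCGC or their reverse complements. Mcm3 lies at chr1:20820263-20820562 on the minus strand, Mcm5 at chr8:75109259-75109558 on the plus strand, and Mcm6 at chr1:128359656-128359955 on the minus strand. Mcm7 lies at chr5:138171834-138172133 on the minus strand and Hells at chr19:38930740-38931039 on the plus strand.
Mcm3: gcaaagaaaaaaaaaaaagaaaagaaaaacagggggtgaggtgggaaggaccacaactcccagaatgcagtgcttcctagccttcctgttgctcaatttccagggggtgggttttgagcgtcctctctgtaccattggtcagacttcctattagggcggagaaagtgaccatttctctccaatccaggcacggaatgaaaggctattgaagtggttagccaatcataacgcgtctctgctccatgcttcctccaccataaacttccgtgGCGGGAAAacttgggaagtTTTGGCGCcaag
Mcm5: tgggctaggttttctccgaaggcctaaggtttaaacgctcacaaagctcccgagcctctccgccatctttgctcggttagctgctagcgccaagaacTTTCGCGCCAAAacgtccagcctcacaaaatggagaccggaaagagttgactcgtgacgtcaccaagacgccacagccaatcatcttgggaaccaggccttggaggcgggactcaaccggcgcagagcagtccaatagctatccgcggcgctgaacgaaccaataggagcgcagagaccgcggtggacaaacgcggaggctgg
Mcm6: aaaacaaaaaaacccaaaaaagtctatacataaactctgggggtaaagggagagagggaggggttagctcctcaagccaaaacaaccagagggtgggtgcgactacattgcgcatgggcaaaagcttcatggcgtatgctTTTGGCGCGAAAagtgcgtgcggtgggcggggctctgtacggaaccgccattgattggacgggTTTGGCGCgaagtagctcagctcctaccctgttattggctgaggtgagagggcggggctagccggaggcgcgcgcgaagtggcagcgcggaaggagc
Mcm7: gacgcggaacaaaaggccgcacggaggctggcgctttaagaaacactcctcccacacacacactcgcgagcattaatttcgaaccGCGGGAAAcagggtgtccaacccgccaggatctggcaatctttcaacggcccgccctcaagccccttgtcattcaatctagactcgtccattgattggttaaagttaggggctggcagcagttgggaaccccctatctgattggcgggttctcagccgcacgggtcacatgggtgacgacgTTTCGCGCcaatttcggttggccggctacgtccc
Hells: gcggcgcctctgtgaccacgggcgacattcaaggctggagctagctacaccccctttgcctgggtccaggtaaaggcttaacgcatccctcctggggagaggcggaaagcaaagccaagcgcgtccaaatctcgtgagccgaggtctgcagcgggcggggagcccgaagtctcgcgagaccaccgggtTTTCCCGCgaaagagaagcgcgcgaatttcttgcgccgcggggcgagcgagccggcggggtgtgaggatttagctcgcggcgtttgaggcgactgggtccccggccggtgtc

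The Mcm6 promoter held 3 words and those of Mcm3, Mcm5 and Mcm7 held 2 each. In Mcm5 and Mcm6 a pair of words on opposite strands shared 4 letters and shows as 1 run of capitals. The word of Hells began 62 bases before the start, and the words of Mcm3 began 19 and 38 bases after it. Promoters were in the table for 27 of the 34 members, and 9 of these (33.3%) held a word, the others being those of Cdc6, Cdt1, Pola1 and Pold3. Of the 15711 genes of the table with a promoter 3.29% held a word, and of all 32851 promoters 2.26%. It was 44.2% for 43 other replication genes, 45% for 20 other G1 regulators and 3.03% for 33 G2 and M phase genes. Among members it was 4 of 5 MCM genes, with no word in Mcm2, and none of 4 genes for nucleotides and repair or of 4 of G1 control. These are matches of letters, and binding at them was not measured.

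Summed over all 34 genes, the level was lower in low-RNA wells than in RNA-rich wells when all gene molecules were the total. The sum was 24.4 to 46.5 (median 36.1, SD 4.95) in low-RNA wells and 18.98 to 65.9 (median 46.2, SD 9.69) in RNA-rich wells, a ratio of medians of 0.781. The ranges overlapped. With mitochondrially encoded genes left out of the total, the medians were 52.3 in low-RNA wells and 53.7 in RNA-rich wells, a ratio of 0.973. Per spike-in molecule the ratio was 0.217. The wells held a median of 79 member molecules in the low-RNA range and 495 in the RNA-rich range, so single genes of low-RNA wells rest on few molecules.

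**Figure D1:**
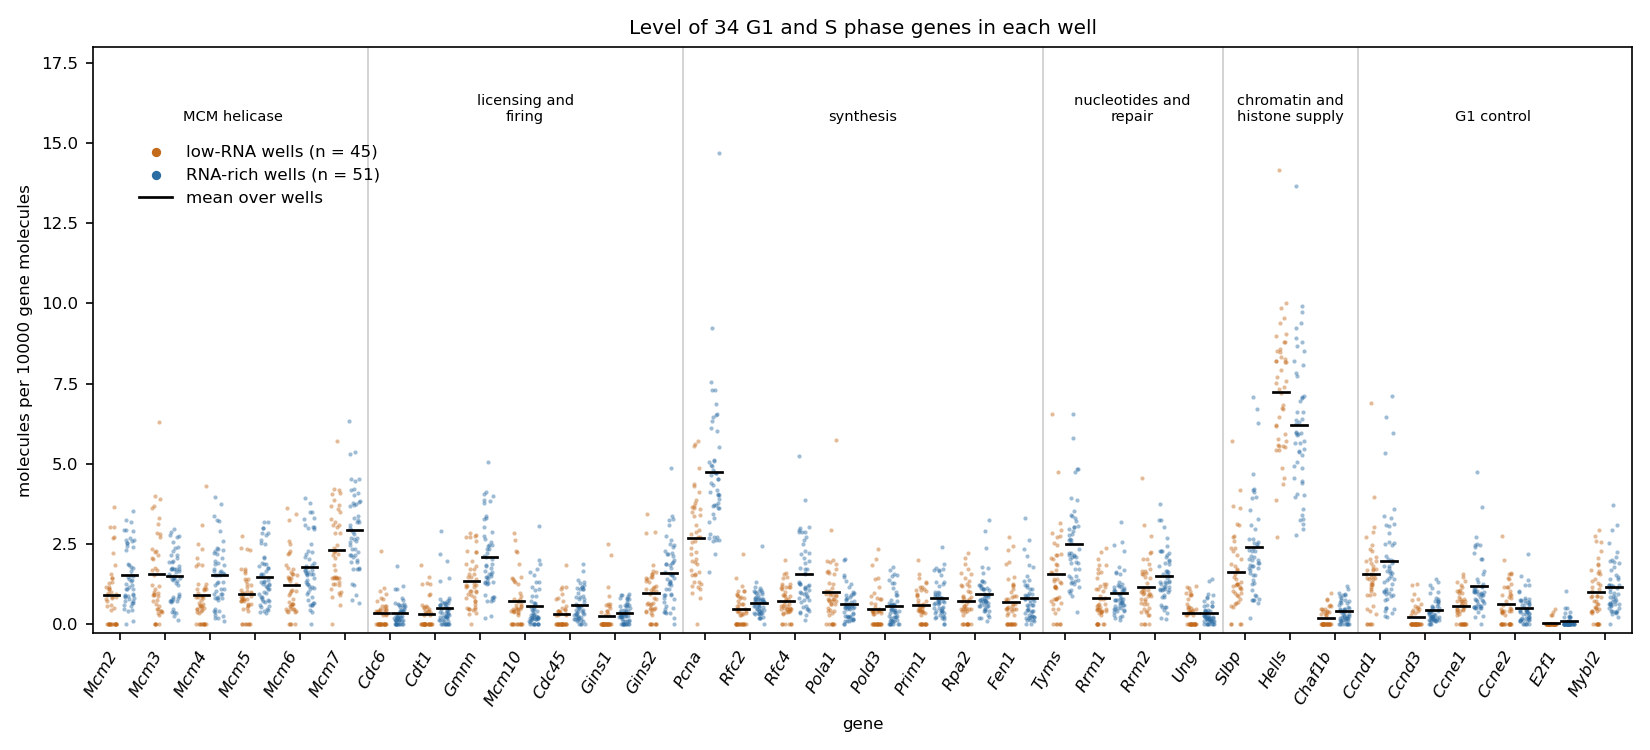
Level of each of the 34 genes in every well, in molecules per 10000 gene molecules, with low-RNA wells (n = 45) left of RNA-rich wells (n = 51) and black lines for means; grey lines divide the roles. Hells lies highest in both ranges, Pcna has 1 RNA-rich well at 14.7, and the ranges of the wells overlap for every gene.

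In RNA-rich wells the 6 subunits of the MCM helicase were expressed at like levels apart from Mcm7. In low-RNA wells Mcm7 had the highest mean and Mcm3 the next. Mcm7 had 0 to 5.70 (median 2.17) in low-RNA wells and 0.657 to 6.32 (median 2.82) in RNA-rich wells. The means of the other subunits lay between 0.893 for Mcm4 and 1.57 for Mcm3 in low-RNA wells, and between 1.47 for Mcm5 and 1.76 for Mcm6 in RNA-rich wells. Mcm3 was the only subunit with a higher mean in low-RNA wells, 1.57 ± 1.37 (SD, n = 45 wells) against 1.50 ± 0.75 (SD, n = 51 wells). The ratio of low-RNA to RNA-rich means was 1.05 for Mcm3, 0.791 for Mcm7, 0.69 for Mcm6, 0.641 for Mcm5, 0.589 for Mcm2 and 0.581 for Mcm4. Among RNA-rich wells that were not marker-high, the sum of the 6 subunits was lowest in C02, at 5.34, and highest in B05, at 18.5.

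Among genes of origin licensing and firing, geminin and Gins2 had the highest levels. Gmnn, whose product geminin binds and blocks Cdt1, had 0 to 2.82 (median 1.17) in low-RNA wells and 0.185 to 5.06 (median 1.84) in RNA-rich wells. Gins2, a GINS subunit, had 0 to 3.42 (median 0.813) in low-RNA wells and 0 to 4.86 (median 1.52) in RNA-rich wells. The other GINS subunit listed, Gins1, was lower, with a mean of 0.25 in low-RNA wells and 0.348 in RNA-rich wells. Cdc6 and Cdt1, which load the MCM ring, had means of 0.328 and 0.323 in low-RNA wells and of 0.342 and 0.496 in RNA-rich wells. Cdc45, the helicase cofactor, had 0.30 in low-RNA wells and 0.592 in RNA-rich wells. Mcm10, an initiation factor that is no subunit of the ring, went the other way, with 0.713 ± 0.744 in low-RNA wells and 0.563 ± 0.648 in RNA-rich wells (SD, n = 45 and 51 wells).

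The sliding clamp was the most abundant gene of DNA synthesis. Pcna had 0 to 5.70 (median 2.58) in low-RNA wells and 1.63 to 14.7 (median 4.38) in RNA-rich wells. Its highest level was in E02, a marker-high well, and the next was 9.24. Rfc4 and Rfc2 encode subunits of the complex that loads the clamp. Rfc4 had 0 to 1.98 (median 0.612) in low-RNA wells and 0.118 to 5.22 (median 1.23) in RNA-rich wells. Rfc2 had means of 0.449 in low-RNA wells and 0.664 in RNA-rich wells. Pola1, the catalytic subunit of DNA polymerase alpha, had 0 to 5.72 (median 0.774) in low-RNA wells and 0 to 2.03 (median 0.523) in RNA-rich wells. The highest low-RNA value was in well A12, and the ranges overlapped. The primase Prim1, the polymerase delta subunit Pold3, the single-strand binding protein gene Rpa2 and the flap endonuclease Fen1 had means of 0.461 to 0.729 in low-RNA wells and 0.548 to 0.936 in RNA-rich wells.

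Among genes of nucleotide supply, thymidylate synthase was highest. Tyms had 0 to 6.54 (median 1.31) in low-RNA wells and 0.361 to 6.54 (median 2.21) in RNA-rich wells. The ribonucleotide reductase subunits Rrm1 and Rrm2 had means of 0.792 and 1.16 in low-RNA wells, and of 0.964 and 1.50 in RNA-rich wells. Ung, which removes uracil from DNA, had means of 0.345 in low-RNA wells and 0.329 in RNA-rich wells.

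Hells, a chromatin remodeller needed for normal DNA methylation, had the highest mean of all members in both ranges. It had 2.72 to 14.2 (median 7.38) in low-RNA wells and 2.78 to 13.7 (median 5.94) in RNA-rich wells, and it was the only member with a molecule in every low-RNA well. Slbp, which binds the stem-loop of histone mRNAs, had 0 to 5.70 (median 1.25) in low-RNA wells and 0.181 to 7.09 (median 2.01) in RNA-rich wells. Its highest well, C11, was also the highest RNA-rich well for Hells. Chaf1b, a subunit of chromatin assembly factor 1, had 0 to 0.956 (median 0) in low-RNA wells and 0 to 1.18 (median 0.313) in RNA-rich wells.

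Of the G1 regulators, cyclin D1 had the highest mean and E2f1 the fewest molecules of all members. Ccnd1 had 0 to 6.88 (median 1.43) in low-RNA wells and 0.217 to 7.12 (median 1.58) in RNA-rich wells. Ccnd3, another D-type cyclin, had 0 to 1.25 (median 0) in low-RNA wells and 0 to 1.41 (median 0.317) in RNA-rich wells. The means of the E-type cyclins, which activate Cdk2 at the entry to S phase, lay in opposite directions. Ccne1 had 0 to 1.54 (median 0.525, mean 0.554) in low-RNA wells and 0 to 4.73 (median 0.973, mean 1.19) in RNA-rich wells. Ccne2 had means of 0.624 (SD 0.646) in low-RNA wells and 0.496 (SD 0.442) in RNA-rich wells. The exact Poisson intervals of its pooled level overlapped, at 0.462 to 0.775 in low-RNA wells and 0.461 to 0.579 in RNA-rich wells. The direction of Ccne2 was therefore not separated from counting error. E2f1, the transcription factor, had 50 molecules in all, in 4 low-RNA wells and 15 RNA-rich wells. After thinning each well to 15000 gene molecules, E2f1 was found in 1 of 39 low-RNA wells and 4 of 51 RNA-rich wells. Mybl2, which encodes B-Myb, had means of 0.993 in low-RNA wells and 1.14 in RNA-rich wells, but only 32.5% of its molecules came from unique reads, so its level is uncertain. All other members had over 50%, with Pcna at 68.1% and Slbp at 69.4%.

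The comparison of low-RNA with RNA-rich wells was read gene by gene as a ratio of mean levels, called at 2-fold in either direction. Of the 34 members, 33 reached a mean level of 0.2 over all wells, and E2f1 did not. At most 0.5-fold were 4 members, against a background of 9.41% of 5154 genes. They were Ccne1 (0.465), Rfc4 (0.465), Chaf1b (0.469) and Ccnd3 (0.493). None was at least 2-fold higher, against a background of 4.4%. The median ratio of the members was 0.719 and that of all genes tested 0.769, so the members lay near the genes as a whole. In the pooled molecules, 17 of the 33 members had an exact Poisson 95% interval in low-RNA wells wholly below that in RNA-rich wells, against a background of 37.8% of the 5154 genes. Pola1 alone among members had one wholly above, against 10.3%. These intervals cover counting error only, and whether they separate depends on how many molecules a gene had.

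The calls depended on the total. Without mitochondrially encoded genes in it, no member was at most 0.5-fold, against a background of 2.78% of 5794 genes. Only Pola1 was at least 2-fold (2.07), against a background of 9.32%. The median ratio was then 0.886 for the members and 0.98 for all genes tested. The low-RNA mean of Pola1 included well A12, at 5.72 with all gene molecules as the total, where the next well had 2.93. The ratio of Pola1 without A12 was not computed, so its call may depend on that well. The 6 genes with higher means in low-RNA wells under both totals were Pola1, Mcm10, Ccne2, Hells, Mcm3 and Ung. Of these, only Pola1 had pooled intervals that did not overlap, with all gene molecules as the total. The share of mitochondrially encoded RNA moved with the range of wells, and its part in these ratios beyond the change of total was not tested.

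**Figure D2:**
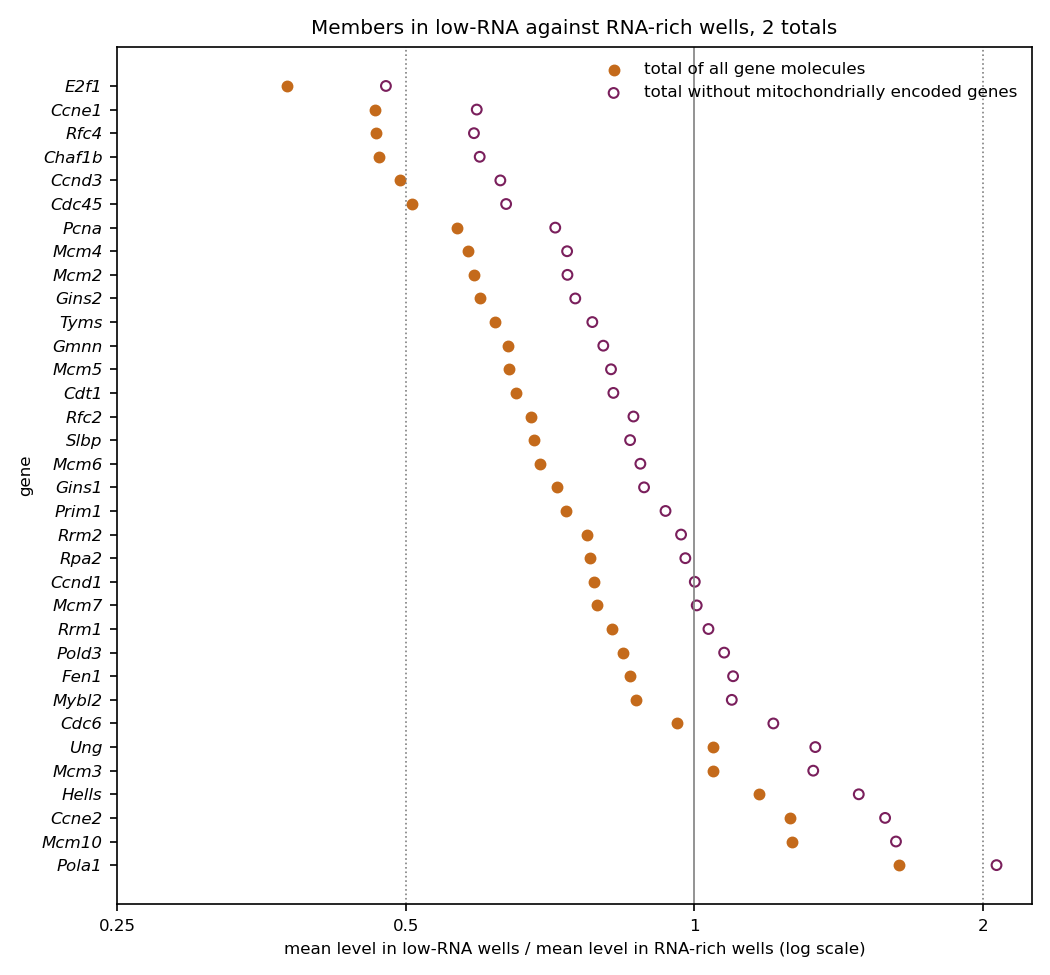
Ratio of the mean level in 45 low-RNA wells to that in 51 RNA-rich wells for each of the 34 genes, on a log axis, with all gene molecules as the total (filled) and without mitochondrially encoded genes (open). Dotted lines mark 0.5-fold and 2-fold; 4 tested members lie at most at 0.5-fold with the first total, and with the second only Pola1 lies past a line among tested members, E2f1 being below the minimum level.

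The number of members detected per well was compared at equal depth. After thinning to 15000 gene molecules, a median of 22 members was detected in 39 low-RNA wells and 23 in 51 RNA-rich wells (SD over wells 2.60 and 3.07), with 6 shallower low-RNA wells left out. Member molecules then had medians of 54 in low-RNA wells and 71 in RNA-rich wells. At 8000 gene molecules, which kept every well, the medians were 15 members in low-RNA wells and 18 in RNA-rich wells. Without thinning the medians were 25 in low-RNA wells and 32 in RNA-rich wells. At 15000 gene molecules 7 members were detected in a higher share of low-RNA wells and 27 in a lower share. The same count over all genes was not made, so these counts cannot be read as particular to the members. The median ratio of low-RNA to RNA-rich mean levels over all genes tested was 0.769 with this total. Of the 4 members called lower, Ccnd3 was found in 20.5% of low-RNA wells and 49.02% of RNA-rich wells, Chaf1b in 23.1% and 37.3%, Ccne1 in 61.5% and 64.7%, and Rfc4 in 76.9% and 82.4%. In the other direction, Ung was found in 46.2% of low-RNA wells and 27.5% of RNA-rich wells, Mcm10 in 66.7% and 50.98%, and Ccne2 in 51.3% and 35.3%.

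Variation between RNA-rich wells was set against synthetic spike-in RNAs, of which each chamber received the same solution. The noise ratio is the squared coefficient of variation (CV) of a gene divided by that fitted for a spike-in of the same mean, 3.23/mean + 0.00874. A gene was called above technical noise where the ratio was at least 2 with all wells and again without its highest well. Of 33 members with a mean of at least 1 molecule, 3 were called, against a background of 7% of 7768 genes. At a minimum mean of 5 molecules 3 of 28 members were called, against 14.5% of 3151 genes. The count of 3 is therefore not read as particular to the members. They were Ccnd1 (4.02, and 3.34 without its highest well), Slbp (3.09 and 2.64) and Mcm10 (2.60 and 2.03). The median ratio was 1.65 for the members tested and 1.36 for all genes tested.

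Ccnd1 had a CV of 78.2% over RNA-rich wells with 4 wells apart from the rest, D07 at 7.12, A04 at 6.46, A10 at 5.97 and E02 at 5.33, where the next had 3.60. Slbp had a CV of 62.6%, with 7.09 in C11, 6.69 in G04 and 6.28 in D01, where the next well had 4.67. Mcm10 had a CV of 115%, with 3.05 in D06, and was at 0 in 8 RNA-rich wells. Without the 13 marker-high wells the same 3 genes were called, against a background of 6.06% of 7297 genes, with ratios of 4.04 for Ccnd1, 3.46 for Slbp and 2.76 for Mcm10. Pcna had a ratio of 2.92, which was 1.72 without well E02, and so was not called. Hells had a ratio of 2.29 with all wells and 1.83 without its highest well, C11. Rfc2 (0.788), Gins1 (0.846) and Chaf1b (0.953) varied less than the fit. Thinned to 50000 gene molecules, no member was called.

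**Figure D3:**
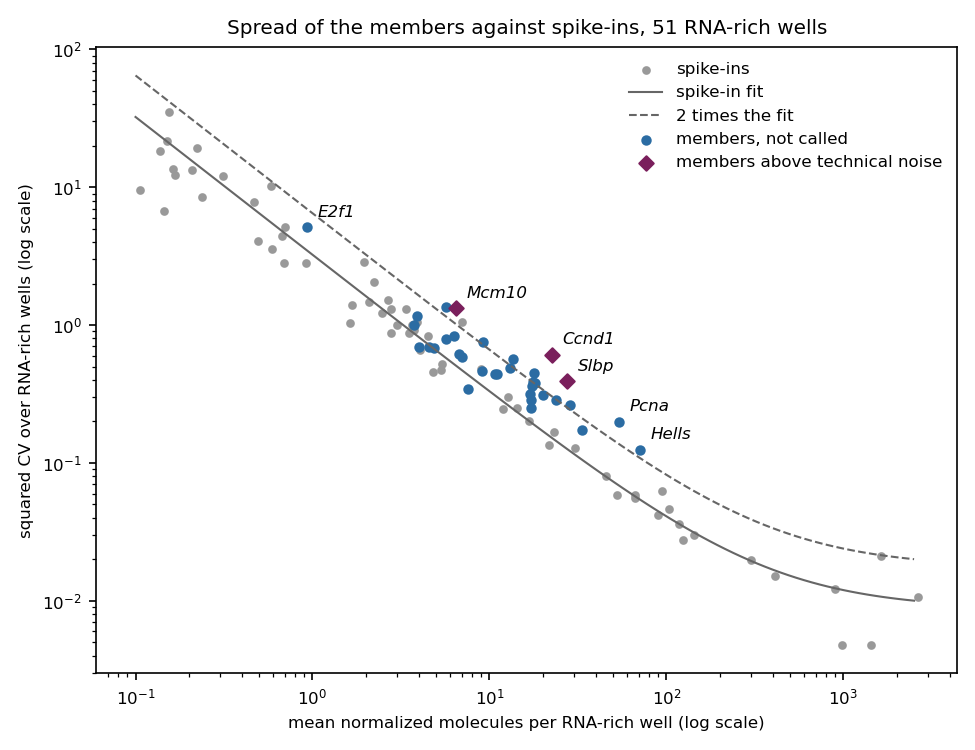
Squared CV over 51 RNA-rich wells against mean normalized molecules per well, both on log axes, for spike-ins (grey), members not called (blue) and members above technical noise (diamonds), with the spike-in fit and 2 times the fit. Ccnd1, Slbp and Mcm10 are the called members; Pcna lies above the dashed line with all wells but not without well E02.

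Members were weakly correlated with each other across RNA-rich wells. Over 378 pairs of the 28 members with a mean of at least 5 normalized molecules, the median Spearman rho was 0.097, against 0.016 over 4962825 pairs of 3151 genes. All wells share 1 chip and differ in depth, and these values are descriptions. A rho of at least 0.3 was found in 10.6% of member pairs and 3.504% of all pairs. The 15 pairs of MCM subunits were all above 0, with a median of 0.26 and a range of 0.127 to 0.423. Above 0 were 72.8% of member pairs and 54.03% of all pairs. The 15 pairs come from 6 genes, so they are not independent of each other. Without marker-high wells the lowest of these pairs, Mcm3 with Mcm5, was at 0.001, and the highest, Mcm3 with Mcm6, at 0.355. The highest pairs of all were Mcm2 with Rrm2 (0.515), Mcm4 with Tyms (0.485) and Mcm5 with Mybl2 (0.457). In the other direction Rrm1 with Rpa2 was at -0.28 and Mcm2 with Pola1 at -0.27.

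**Figure D4:**
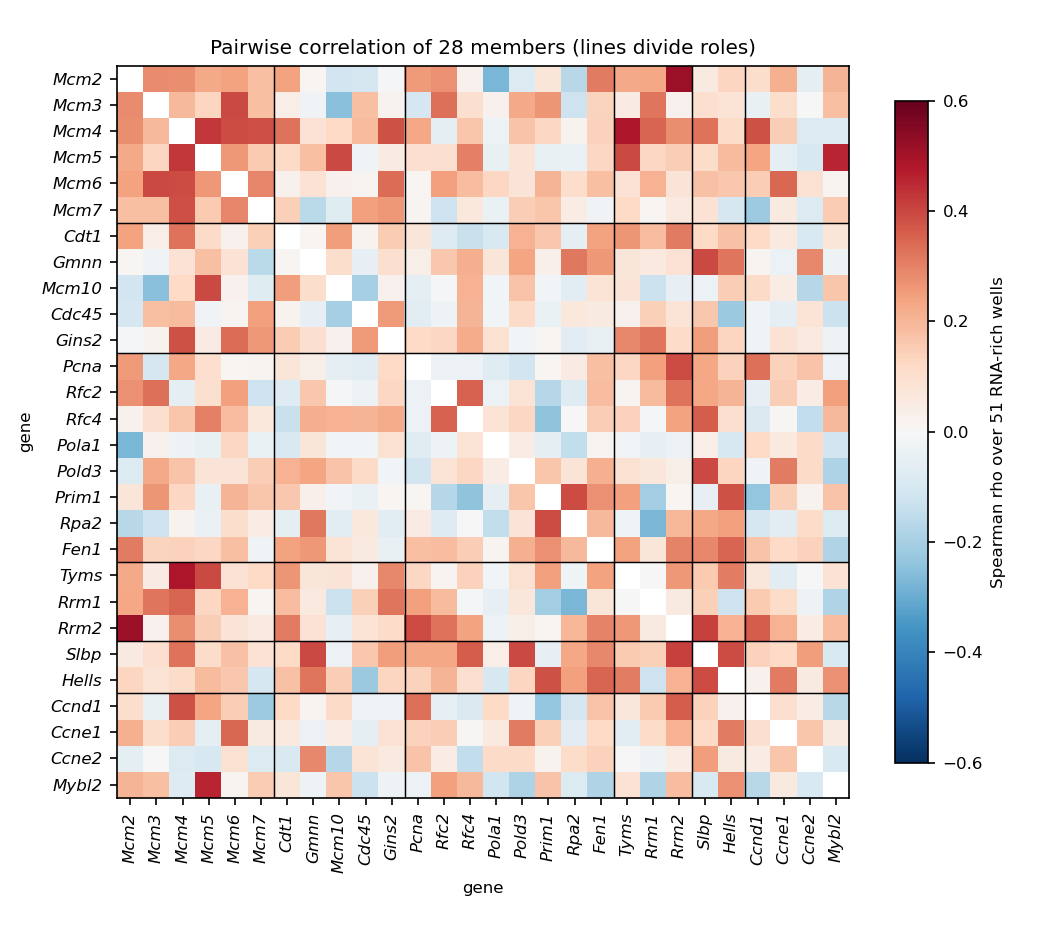
Spearman rho over 51 RNA-rich wells for each pair of the 28 members with a mean of at least 5 normalized molecules, ordered by role, with red above 0 and blue below. The block of MCM subunits at the top left is red throughout (0.127 to 0.423), and Pola1 has no pair above 0.125.

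Each member was then compared with the sum of the other 33. Over RNA-rich wells rho was above 0 for 32 of 34 members, where 62.4% of 3123 other genes had a rho above 0 with the sum of all members. It was highest for Mcm4 (0.624), Rrm2 (0.526) and Slbp (0.474). Below 0 it was -0.10 for Gins1 and -0.01 for Pola1. Without marker-high wells it was above 0 for 29 members and below 0 for Gins1, Prim1, Mcm10, Mybl2 and Pola1, the lowest being -0.19 for Gins1. Rrm2 (0.555) and Mcm4 (0.537) were the highest there. Of the 6 roles over all 51 RNA-rich wells, nucleotides and repair had the highest rho with the members of the other roles (0.646) and licensing and firing the lowest (0.346). Without marker-high wells, nucleotides and repair had 0.608, licensing and firing 0.481, and chromatin and histone supply the lowest value, 0.341.

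The list of 55 other replication genes followed the members. Its summed level had a rho of 0.678 with that of the members over RNA-rich wells and of 0.57 without marker-high wells. In low-RNA wells it was 0.128. Of this list 52 were tested for the ratio of low-RNA to RNA-rich wells, with 4 at most 0.5-fold (Rfc5, Pold2, Pole3 and Rpa3) and 2 at least 2-fold (Chaf1a and Atad2). Over all genes tested 9.41% were at most 0.5-fold and 4.4% at least 2-fold. Without mitochondrially encoded genes in the total, none of 54 was at most 0.5-fold and 4 were at least 2-fold, Chaf1a and Atad2 again with Casp8ap2 and Wdhd1, which were named after their values were seen. The shares over all genes tested were then 2.78% and 9.32%. Chaf1a, the large subunit of chromatin assembly factor 1, had a ratio of 2.34, whereas its partner Chaf1b among the members had 0.469. Atad2, a chromatin-bound ATPase, had 2.04. The abundant genes of the list were Nasp, a histone chaperone, Dut, which removes dUTP from the nucleotide pool, the histone chaperone subunit Supt16h and the DNA ligase Lig1. Nasp had a mean of 9.01 ± 2.63 in low-RNA wells and 11.8 ± 3.07 in RNA-rich wells (SD, n = 45 and 51 wells). Of 55 genes 1 was above technical noise, Tk1, the thymidine kinase of S phase, with a ratio of 2.58 (2.30 without its highest well). The share over all genes tested was 7%.

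The list of 27 other G1 regulators had a rho of 0.168 between its sum and that of the members over RNA-rich wells, and of 0.241 without marker-high wells. Of 18 genes tested, 2 were at most 0.5-fold in low-RNA wells, Cdkn2a (0.361) and Cdkn1a (0.50), and none was at least 2-fold. The shares over all genes tested were 9.41% and 4.4%. Cdkn1a encodes an inhibitor of cyclin-dependent kinases, and Cdkn2a encodes such an inhibitor and the p53 activator Arf. Without mitochondrially encoded genes in the total Cdkn1a was at 0.633, and of 19 genes tested 1 was at most 0.5-fold (Cdkn2a, 0.457) and 1 at least 2-fold (E2f7, 2.17, named after its value was seen). All genes tested had shares of 2.78% and 9.32% with this total. Of 23 tested for noise 4 were called, Cdkn1a, Ccnd2, Cdkn1c and E2f8, and 1 of 22 without marker-high wells. Over all genes tested 7% and 6.06% were called. Cdkn1a had a noise ratio of 30.4, which was 3.47 without its highest well. Its mean over RNA-rich wells was 1.35 with an SD of 3.48. Whether its 0.5-fold call depends on that well was not tested. The abundant genes of the list were Cdk4, the kinase partner of D-type cyclins, at 2.03 in low-RNA wells and 3.55 in RNA-rich wells, Cdkn1a, Fbxo5, an inhibitor of mitotic ubiquitination, and the phosphatase Cdc25a.

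Among RNA-rich wells that were not marker-high, a high sum of the members went with a low sum of 38 G2 and M phase genes, which act in chromosome segregation and cell division. Over 51 RNA-rich wells rho between the 2 sums was -0.27 and Pearson's r of log2(level + 1) was 0.003. Over the 38 wells that were not marker-high these were -0.45 and -0.40. In low-RNA wells they were -0.13 and -0.26. Well D02, with feeder markers at 191, was lowest in both sums, at 18.98 for members and 17.53 for G2 and M phase genes. Well H07, with trophectoderm markers at 74.8, had 31.3 for members and the highest G2 and M sum, 105. Whether cells of another type account for these wells was not tested.

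Single wells show the pattern. The 5 highest sums of members were 65.9 in A10, 65.4 in C11, 63.9 in C08, 61.6 in A04 and 59.7 in A03, and in these wells G2 and M phase genes summed to 45.9, 35.1, 35.03, 34.2 and 41.1. All 5 lie below the median for G2 and M phase genes, 49.1 over RNA-rich wells and 53.5 over those that were not marker-high. Among wells with a low sum of members that were not marker-high, G05 had 31.4 for members and 74.6 for G2 and M phase genes, and A05 had 35.8 and 88.9. F10 went against this, with 32.8 for members and 32.5 for G2 and M phase genes, the lowest G2 and M sum of these wells. Histone genes summed to 103 in A03, the highest well, but over RNA-rich wells their rho with the members was 0.173.

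The relation to the G2 and M sum is given next for each role, and differences between roles were not tested. In the 38 wells that were not marker-high, rho was -0.42 for synthesis genes, -0.39 for chromatin and histone supply, -0.36 for nucleotides and repair, -0.22 for licensing and firing and -0.14 for G1 control. It was -0.04 for the MCM helicase. The lowest single genes were Rpa2 (-0.43), Slbp (-0.40), Prim1 (-0.40) and Gmnn (-0.34), and Mcm3 was at 0.18. Over all RNA-rich wells 19 of 34 members had a rho below 0 with the G2 and M sum. Single members lay between -0.30 for Ccne2 and 0.20 for Mybl2. The share of all genes below 0 was not computed, so this count cannot be read as particular to the members.

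**Figure D5:**
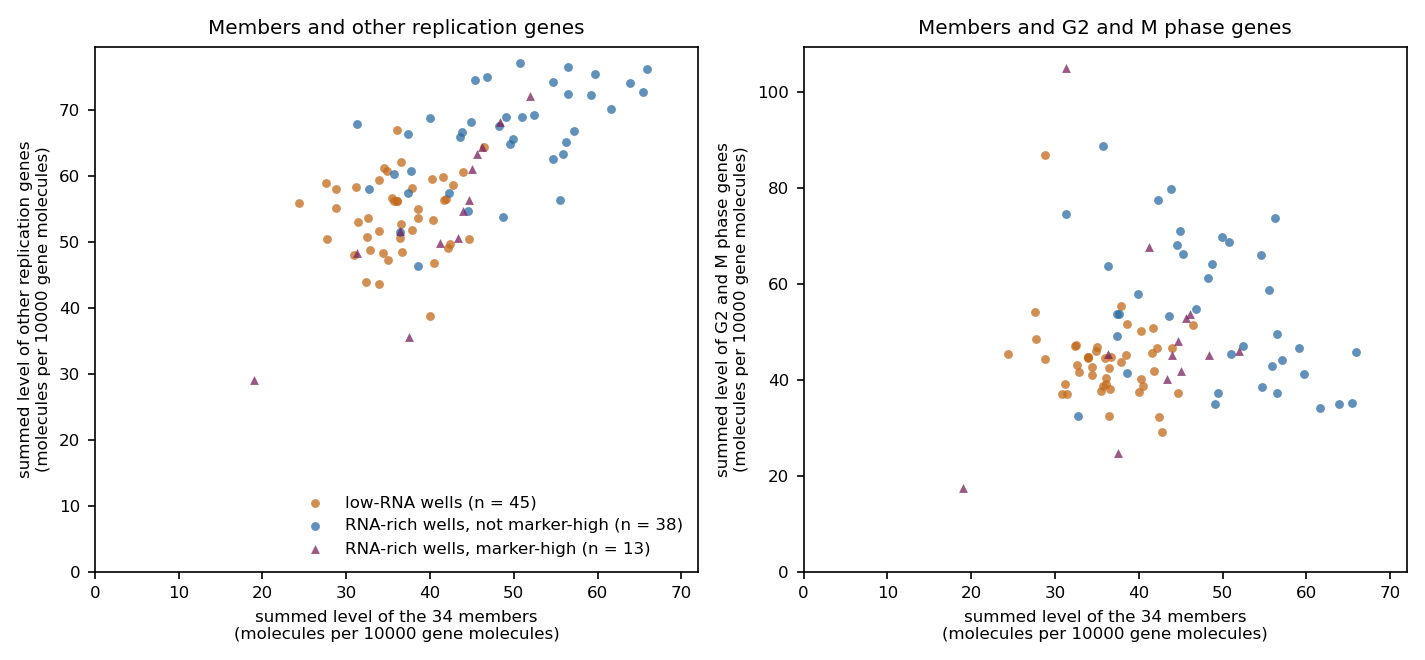
Summed level of the 34 members in each well against that of 55 other replication genes (left) and 38 G2 and M phase genes (right), in molecules per 10000 gene molecules, for low-RNA wells, RNA-rich wells that were not marker-high and marker-high RNA-rich wells. The left panel slopes upward among RNA-rich wells (rho 0.678), and in the right panel the wells with the highest sums of members lie low, with marker-high wells D02 and H07 at the extremes.

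Genes outside the list were ranked by their rho with the sum of the members over RNA-rich wells, taking the 3123 genes that averaged 5 or more normalized molecules. The 10 highest were Stip1, a co-chaperone of Hsp70 and Hsp90 (0.597), Tomm5 of the mitochondrial import pore (0.578), Dtymk, thymidylate kinase (0.576), Tk1 (0.574), Dpy30 of histone methyltransferase complexes (0.573), Sssca1 (0.564), Nop10 of small nucleolar ribonucleoproteins (0.545), Atp5j2 of ATP synthase (0.543), Rrp15, a ribosome assembly factor (0.534) and Ptma, prothymosin alpha (0.531). Without marker-high wells they lay between 0.417 and 0.547. Ptma had 28.7% of molecules from unique reads and is uncertain. Of 38 other replication genes ranked, 33 had a rho above 0, with a median of 0.167, and of 30 G2 and M phase genes 8 did, with a median of -0.10. Over all ranked genes 62.4% had a rho above 0 and the median was 0.054.

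In the GENCODE M21 annotation of GRCm38, 10 of the 34 members share exonic bases with a neighbouring gene. Mcm7 on chromosome 5 from 138164583 to 138172422 hosts the microRNA genes Mir25 and Mir93 on its own strand. Slbp on chromosome 5 from 33634952 to 33652574 and Ccnd1 on chromosome 7 from 144929931 to 144939925 overlap genes on the opposite strand. So do Ccne2, Ccnd3, Cdc45, Gins2, Rfc2, Rfc4 and Fen1. Their counts are uncertain to the extent that reads of such neighbours were assigned to them.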

How the data were processed

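The values were molecule counts per gene and cell barcode, deposited by the authors with no normalization, per the file headers. The headers also state that a read matching several places was given to its most 5′ exonic hit, and that molecules from uniquely mapped reads are listed separately. Bowtie and the build mm10 (GRCm38) are named in the submitters' processing notes, and no version is given in the sources used here. Spike-ins (96) and repeat types (1554) were left out of gene totals, which gives the depth of each well and limits its precision.

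The members and all lists were chosen with earlier results of these data known. Every member was named, and of the lists of other replication genes and other G1 regulators the 4 highest means and each called gene. Of genes outside the members, the 10 most correlated were named. Levels were counts per 10000 gene molecules. Ratios needed a mean level of 0.2. For noise and pairs, counts were divided by the gene total of the well relative to the mean total. The spike-in fit was a gamma model with identity link over the 65 spike-ins that averaged 0.1 or more molecules. Thinning was without replacement. No doublet caller was run and no well was removed. The scripts were checked on simulated counts. Alternatives changed the wells, the total, the normalization, the thresholds and the measure of correlation. Scripts used matplotlib 3.10.9, pandas 2.3.3, scipy 1.17.1 and numpy 2.4.6 under Python 3.11.15.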

Additional observations from a re-analysis of the deposited data

How the results depend on the processing

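No paired analysis was possible because both libraries of a cell barcode are combined in 1 column and wells carry no replicate number. The summed level of the members in low-RNA wells was 52.3 without mitochondrially encoded genes in the total, against 36.1 with them, and the ratio of low-RNA to RNA-rich medians was 0.217 per spike-in molecule, against 0.781. The 4 members at most 0.5-fold became 0 without mitochondrially encoded genes, 13 of 33 at a fold of 1.5 and 1 of 16 at a minimum mean level of 1, where 2.78%, 34.6% and 8.09% of all genes tested were lower. None was at least 2-fold, against 1 without mitochondrially encoded genes and 1 at a fold of 1.5 (all genes 9.32% and 10.1%).

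The 3 members above technical noise became 13 with the spike-in total, 17 with no normalization, 17 at a ratio of 1.5, 0 after thinning to 50000 gene molecules and 0 of 26 in low-RNA wells. Over all genes those settings called 12.1%, 18.7%, 19.2%, 2.27% and 0.594%. The median rho among member pairs was -0.054 in low-RNA wells, from 3 members (all genes 0.042). The Spearman correlation of the summed members with G2 and M phase genes was -0.45 without marker-high wells and -0.13 in low-RNA wells, and Pearson's r was 0.00272 with all RNA-rich wells. Members detected numbered 15 in low-RNA wells and 18 in RNA-rich wells at 8000 gene molecules, and 25 and 32 unthinned. The cause was not tested. The other 45 alternative values kept their direction and stayed within 1.5 times a count, 0.1 of a correlation or 1 SD over wells. These limits are wide for the ratio of low-RNA to RNA-rich medians. It was 0.973 without mitochondrially encoded genes in the total, against 0.781, so the lower sum nearly vanished although the value is counted among the 45. The setting that counts C03 and H03 once was chosen after seeing the data. A median of 79 member molecules per low-RNA well limits what single genes can show there.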
